A study of Mus musculus with 6 samples.

Results

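The 8 genes described here encode components of the peripheral myelin sheath or mark the Schwann cell, the glial cell that wraps axons in peripheral nerve. Mbp, Pmp22, Prx, Ncmap, Mag and Mal stand for myelin structure, and Sox10 and Cdh19 for Schwann cell identity. These 8 genes were chosen by name, with earlier results of these data known. They are 8 of 54232 genes in the deposited count table, and all 8 passed the expression filter that left 14335 genes for testing. RNA came from tibialis anterior, a fast muscle at the front of the shin, in mice of strain C57BL6 that were 1 month old. One group carried a deletion of exon 51 of Dmd, the dystrophin gene mutated in Duchenne muscular dystrophy (genotype Delta 51, here dEx51 4, 5 and 6), and the others were wild type (WT 1, 2 and 3), with 3 libraries each. For neither genotype do the labels name a tissue-specific driver, another allele or an agent. The comparison asks how the exon deletion changes expression in the muscle.

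A motor nerve enters the muscle and branches to reach the fibres, and its larger axons are wrapped by myelinating Schwann cells. Compact myelin is built from membrane layers held together by adhesion and basic proteins, while non-compact regions keep channels of cytoplasm that feed the sheath. Sox10 directs the lineage at all stages and acts with Egr2 on myelin genes. Schwann cells also make a shorter product of Dmd from an internal promoter, and the periaxin of Prx binds a dystrophin relative, Drp2, at the outer Schwann cell membrane.

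Reads assigned to genes totalled 15681945 to 21020353 per library. Levels are CPM, the count of a gene relative to the reads of its library, after TMM scaling, which aligns the bulk of genes between libraries. The TMM factors were 1.04 to 1.19 in dEx51 and 0.869 to 0.898 in WT. The scaling moves every fold change: the median gene tested lay at -0.01 on the log2 scale with TMM and at 0.34 with library size alone. Dmd was at 47.7, 46.4 and 51.1 CPM in dEx51 and at 235, 249 and 266 CPM in WT, which checks the genotype labels at the level of the whole transcript. Genes of fast muscle fibres dominated both groups, with 10 listed genes summing to 85498 to 117155 CPM in dEx51 and 127750 to 131086 CPM in WT. Within a genotype, dEx51 6 stood apart from dEx51 4 and 5, with a chi-square of 47.6 and 41.1 per degree of freedom against 16.9 between dEx51 4 and 5. WT 1 stood apart from WT 2 and 3 as well, at 22.6 and 20.8 against 8.81 between WT 2 and 3.

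Of the 8 genes, 6 fell in dEx51 muscle by the quasi-likelihood test of edgeR at an adjusted p under 0.05, where 28% of all genes tested were called, 11.9% lower and 16.1% higher. By edgeR 0 of the 8 rose, 0 had a positive change at an unadjusted p under 0.05, and DESeq2 and limma-voom also called 0 higher. Those tools called 5 of the 8 lower, DESeq2 without Sox10 (adjusted p = 0.109) and limma-voom without Cdh19 (adjusted p = 0.0647). Mbp, Prx, Ncmap and Mal fell among the myelin genes, and both identity genes, Sox10 and Cdh19, fell. Their levels in dEx51 were 35.3% to 58.0% of those in WT. Pmp22 and Mag were not called. The median log2 fold change over the 8 genes was -0.93, beside -0.01 over all genes tested. For the same 6 genes every dEx51 library lay below every WT library, as it did for 21.7% of all genes tested. Because the 8 genes were chosen with earlier results known, these comparisons with all genes are no test of the list. Scaled to library size alone, the 6 fold changes were again negative, and Mbp, Prx and Ncmap kept their calls while Mal, Sox10 and Cdh19 lost them. CPM is a share of the RNA of whole muscle. Fewer Schwann cells, less RNA per Schwann cell and more RNA from other cells cannot be told apart.

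**Figure D1:**
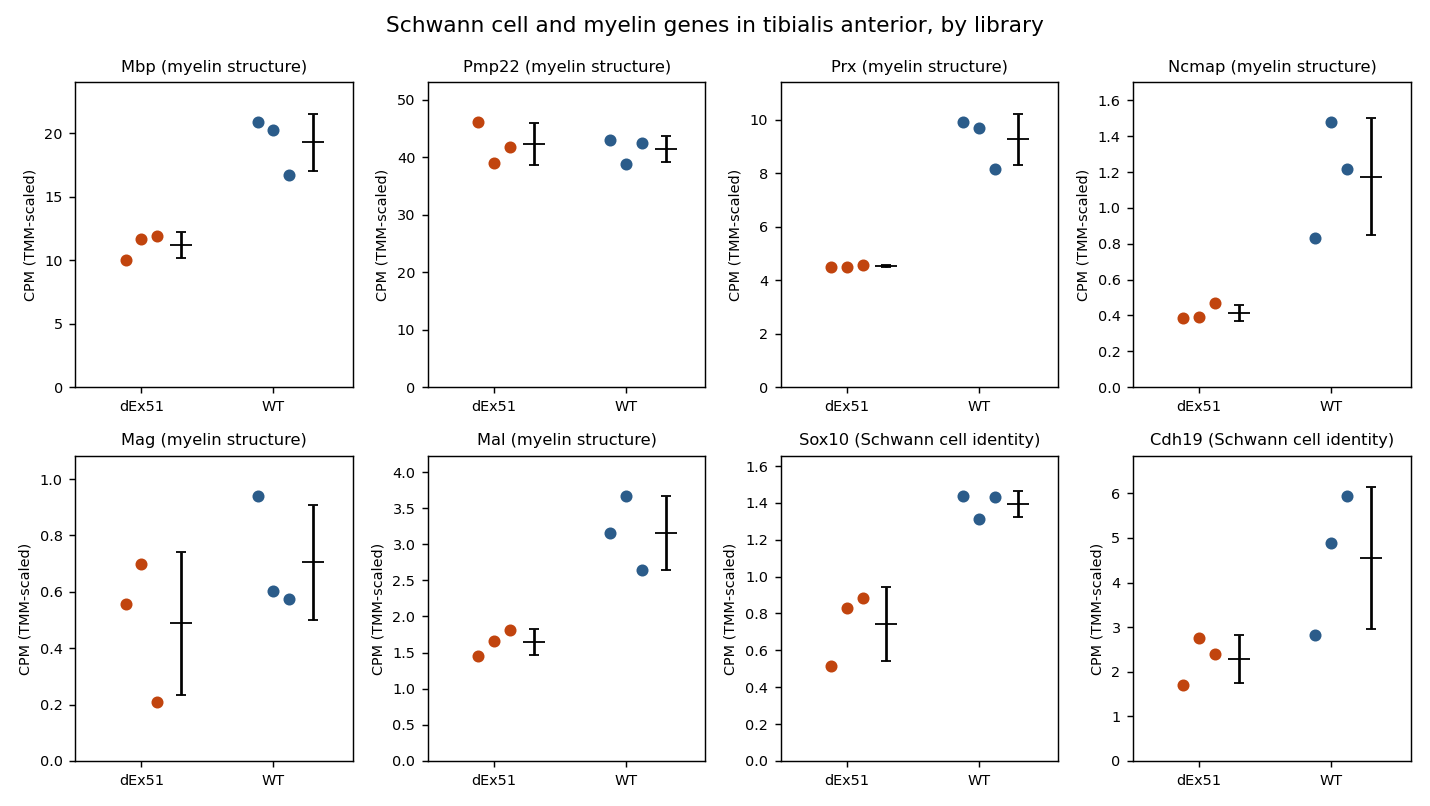
TMM-scaled CPM of each of the 8 genes in the 3 dEx51 libraries (orange) and the 3 WT libraries (blue), with the group mean and SD as a black bar. The dEx51 points lie below all WT points in 6 panels and overlap them for Pmp22 and Mag.

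The start regions of Prx, Ncmap and Mal, which fell together, are shown beside that of Pmp22, which was not called. RefSeq windows on GRCm38.p6, from 250 bases before to 50 bases after an annotated start, existed for 5 of the 8 genes. The sequences run 5′ to 3′ on the strand of the gene, with the first 50 transcribed bases in capitals. The windows are chr7:27499074-27499373 on the plus strand for Prx, chr4:135398178-135398477 on the minus strand for the outer start of Ncmap, chr2:127656646-127656945 on the minus strand for Mal, and chr11:63128732-63129031 on the plus strand for the first of 4 annotated starts of Pmp22.
Prx: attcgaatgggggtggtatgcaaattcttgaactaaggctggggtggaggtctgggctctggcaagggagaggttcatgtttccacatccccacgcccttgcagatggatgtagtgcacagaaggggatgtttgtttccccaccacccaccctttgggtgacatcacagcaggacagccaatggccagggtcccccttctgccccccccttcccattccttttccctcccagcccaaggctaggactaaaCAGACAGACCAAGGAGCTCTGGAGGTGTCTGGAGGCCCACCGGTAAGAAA
Ncmap: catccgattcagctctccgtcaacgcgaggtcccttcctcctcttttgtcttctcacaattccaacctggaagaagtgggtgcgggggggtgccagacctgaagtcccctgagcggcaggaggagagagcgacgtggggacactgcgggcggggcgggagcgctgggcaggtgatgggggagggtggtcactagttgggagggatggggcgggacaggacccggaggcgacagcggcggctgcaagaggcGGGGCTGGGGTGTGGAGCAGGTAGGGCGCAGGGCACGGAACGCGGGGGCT
Mal: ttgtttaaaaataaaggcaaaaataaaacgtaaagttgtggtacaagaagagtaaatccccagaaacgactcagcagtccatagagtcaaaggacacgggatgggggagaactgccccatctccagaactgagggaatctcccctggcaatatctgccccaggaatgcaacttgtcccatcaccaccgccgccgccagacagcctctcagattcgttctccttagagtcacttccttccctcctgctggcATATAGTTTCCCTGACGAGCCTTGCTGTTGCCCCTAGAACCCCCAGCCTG
Pmp22: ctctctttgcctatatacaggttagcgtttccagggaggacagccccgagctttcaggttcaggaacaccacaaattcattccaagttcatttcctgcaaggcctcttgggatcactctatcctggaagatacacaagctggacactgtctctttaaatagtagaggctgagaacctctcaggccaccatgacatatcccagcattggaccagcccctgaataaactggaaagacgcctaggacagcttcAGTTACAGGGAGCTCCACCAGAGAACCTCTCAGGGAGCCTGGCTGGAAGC

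These 4 windows held none of the letters searched on both strands, which were a SOX core in the forms ACAAAG and ACAATG, the EGR consensus GCGNGGGCG and TATAAA, no pair of which can match the same site in full. Among 32851 windows of the same length, 18.7%, 12.6%, 5.55% and 13.6% held those motifs, in that order. Of the 11 windows of the 5 genes, the 2 with a match were overlapping windows of Mag, which share 1 ACAAAG on the opposite strand. GC content was 67.7% for Ncmap, 56.7% for Prx, 51% for Mal and 50.7% for Pmp22, beside a median of 52.7% over all windows.

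Periaxin, the product of Prx, organises the cytoplasmic channels of the Schwann cell. Prx (ENSMUSG00000053198, chromosome 7, 27499324 to 27520214 in GRCm38) was at 4.49, 4.51 and 4.57 CPM in dEx51, against 9.90, 9.70 and 8.16 CPM in WT. The 3 dEx51 libraries were nearly equal, with a coefficient of variation of 0.916%, below the 10.1% from counting error alone. The dEx51 mean was 48.9% of that in WT. This is a log2 fold change of -1.04 with an SE of 0.136 (95% interval -1.35 to -0.72, edgeR adjusted p = 0.00204). Prx was called lower in all 18 refits with another scaling, filter, method or left-out library at the same threshold. The antisense gene Gm15541 overlaps 300 of its exon bases but had 13 counts in all 6 libraries.

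Mbp encodes myelin basic protein, which joins the cytoplasmic faces of compact myelin. The gene (ENSMUSG00000041607, chromosome 18) also gives rise to longer transcripts known from immune and nerve cells, and the count sums them all. Mbp was at 9.97, 11.7 and 11.9 CPM in dEx51, against 20.9, 20.3 and 16.7 CPM in WT. The groups did not overlap, with means of 11.2 ± 1.06 CPM in dEx51 and 19.3 ± 2.26 CPM in WT (SD, n = 3 each). On the log2 scale Mbp fell by 0.79 with an SE of 0.127 (95% interval -1.08 to -0.50, edgeR adjusted p = 0.00429). Mbp kept its call when any single library was left out, at -0.89 to -0.71, and lost it on the authors' RPKM values with a pseudocount of 0.1 or 1.

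Ncmap encodes a small membrane protein of non-compact myelin. It had the largest fall of the 8 genes and few reads, 9 in each dEx51 library and 15, 27 and 17 in WT 1, 2 and 3. Scaled, Ncmap (ENSMUSG00000043924, chromosome 4, 135369576 to 135398227) was at 0.385, 0.394 and 0.467 CPM in dEx51 and 0.830, 1.48 and 1.22 CPM in WT. All WT libraries were above all dEx51 libraries, and WT 2 was the highest. Ncmap fell by 1.49 on the log2 scale with an SE of 0.324 (95% interval -2.24 to -0.75, edgeR adjusted p = 0.0124). The call ended without WT 2 (-1.29) or dEx51 5 (-1.45).

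Mal encodes a proteolipid of lipid-rich membranes, found in myelin and also in epithelia and T cells. Mal (ENSMUSG00000027375, chromosome 2, 127633226 to 127656695) was at 1.45, 1.66 and 1.82 CPM in dEx51, against 3.15, 3.67 and 2.65 CPM in WT. The groups were apart by more than the range within dEx51 but by less than the range within WT. Mal fell by 0.95 on the log2 scale, with a 95% interval of -1.44 to -0.45 (SE 0.215, edgeR adjusted p = 0.0146). Its call ended without WT 2 (-0.83) or dEx51 4 (-0.86), and with library size alone (-0.60).

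Mag, the myelin-associated glycoprotein of the inner sheath membrane, faces the axon. Per kilobase it was the lowest of the 8 genes in both genotypes, with 13, 16 and 4 reads in dEx51 and 17, 11 and 8 in WT. The libraries overlapped, at 0.556, 0.700 and 0.208 CPM in dEx51 and 0.941, 0.603 and 0.573 CPM in WT. Mag (ENSMUSG00000036634, chromosome 7, 30899176 to 30914873) had a log2 fold change of -0.51 (SE 0.445, edgeR adjusted p = 0.426). The 95% interval, -1.53 to 0.51, includes falls as large as those of the other myelin genes. Within dEx51 the coefficient of variation was 51.9%, beside 30.2% from counting error.

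Pmp22 encodes a tetraspan protein of compact myelin and is also known from fibroblasts and other cells outside nerve. Its level set it apart: 46.1, 39.0 and 41.7 CPM in dEx51 and 43.0, 38.9 and 42.5 CPM in WT. The libraries interleaved, with means of 42.3 ± 3.58 CPM in dEx51 and 41.5 ± 2.26 CPM in WT (SD, n = 3 each). Pmp22 (ENSMUSG00000018217, chromosome 11, 63128982 to 63159547) had a log2 fold change of 0.03 (SE 0.0947, edgeR adjusted p = 0.851), which turned to -0.024 without WT 2 and -0.039 without dEx51 4. The 95% interval of -0.19 to 0.25 holds no fall of the size seen in Prx or Mbp. With library size alone Pmp22 was called higher, at 0.38, where the median gene lay at 0.34. Its transcripts are known to start at alternative first exons, one of them used mainly by Schwann cells, and a count over the whole gene cannot separate them.

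Sox10 is the transcription factor that specifies and maintains the Schwann cell lineage. Sox10 (ENSMUSG00000033006, chromosome 15, 79154908 to 79165240) had 12, 19 and 17 reads in dEx51 and 26, 24 and 20 in WT. That was 0.513, 0.831 and 0.883 CPM in dEx51, against 1.44, 1.32 and 1.43 CPM in WT. The WT libraries were close to each other, with a coefficient of variation of 4.99%, below the 20.7% from counting error alone. They lay above all dEx51 libraries, of which dEx51 4 was the lowest. Sox10 fell by 0.91 on the log2 scale with an SE of 0.282 (95% interval -1.56 to -0.26, edgeR adjusted p = 0.0445). It was called in 6 of 17 refits: the call ended without WT 1 (-0.90), WT 2 (-0.96), WT 3 (-0.90), dEx51 4 (-0.70) or dEx51 5 (-0.999), and held without dEx51 6 (-1.05).

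Cdh19, a cadherin of the Schwann cell lineage from its precursors on, is less restricted to myelinating cells than the myelin genes. Cdh19 (ENSMUSG00000047216, chromosome 1, 110888326 to 110977584) was at 1.71, 2.76 and 2.39 CPM in dEx51, against 2.82, 4.88 and 5.94 CPM in WT. WT 1 lay just above dEx51 5, so the groups were separated by a narrow gap. Cdh19 fell by 0.98 on the log2 scale (SE 0.309, 95% interval -1.69 to -0.27, edgeR adjusted p = 0.0468). Called in 8 of 18 refits, it kept its call without WT 1 (-1.25) and lost it without WT 2 (-0.93), WT 3 (-0.76), dEx51 4 (-0.81), dEx51 5 (-1.14) or dEx51 6 (-1.02).

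**Figure D2:**
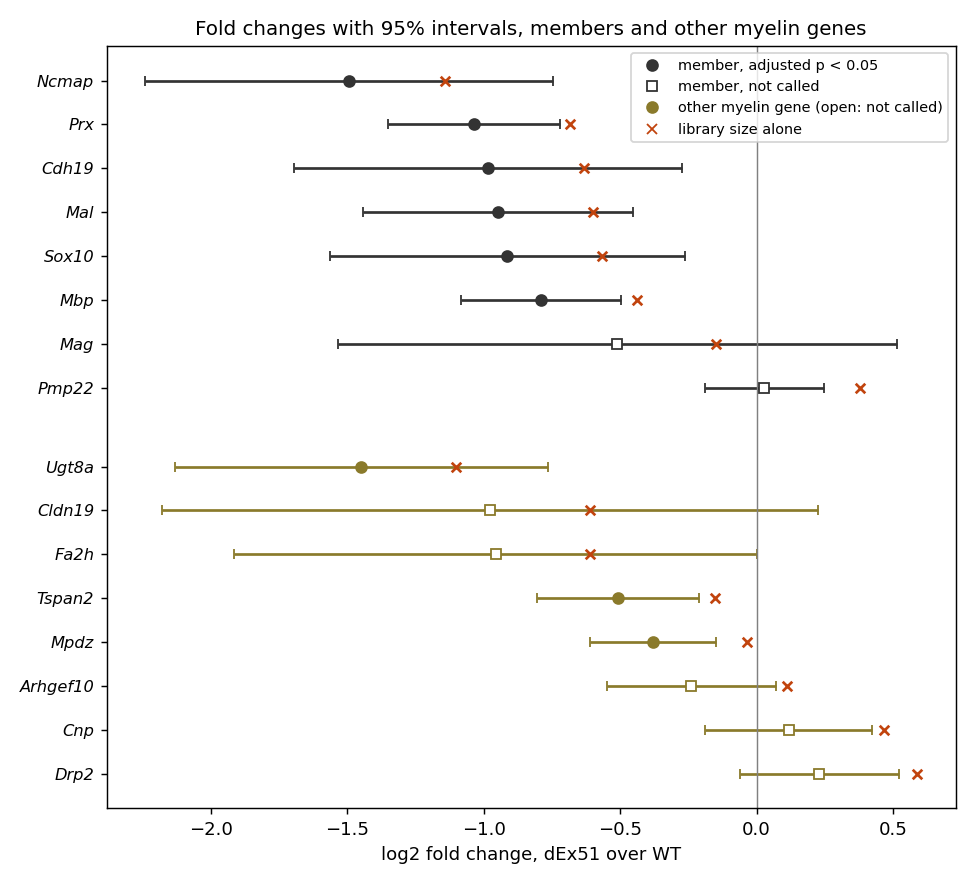
Log2 fold change, dEx51 over WT, with its 95% interval for the 8 genes (black) and 8 other myelin genes (olive), filled where the edgeR adjusted p is under 0.05. Orange crosses give the value with library size alone, which lies to the right of the TMM value for each gene.

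Per length of exon, the 8 genes spanned a wide range, with Pmp22 far above the others. In dEx51 the order by CPM per kilobase was Pmp22 (17.97), Mbp (1.33), Prx (0.811), Mal (0.592), Cdh19 (0.534), Sox10 (0.243), Ncmap (0.187) and Mag (0.120). Libraries overlapped between the neighbours Mal and Cdh19 and between Sox10 and Ncmap. In WT the order was Pmp22 (17.6), Mbp (2.29), Prx (1.66), Mal (1.14), Cdh19 (1.06), Ncmap (0.528), Sox10 (0.457) and Mag (0.173). There, Mal and Cdh19, Cdh19 and Ncmap, and Ncmap and Sox10 overlapped. Pmp22 lay at the 88.4th percentile of all genes tested by this measure, Mbp at the 39.6th and Mag at the 2.71th.

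With the roles apart, the identity genes Sox10 and Cdh19 summed to 2.22, 3.59 and 3.27 CPM in dEx51 4, 5 and 6 and to 4.26, 6.19 and 7.38 CPM in WT 1, 2 and 3. The 6 myelin genes summed to 63.0, 58.0 and 60.7 CPM in dEx51 and 78.7, 74.6 and 71.8 CPM in WT, most of it Pmp22. Without Pmp22 the sums were 16.9, 18.9 and 19.0 CPM in dEx51 and 35.7, 35.7 and 29.3 CPM in WT. With TMM scaling neither sum of a role overlapped between genotypes. The log2 ratio of group means was -0.97 for the identity genes, -0.31 for the myelin genes and -0.88 for the myelin genes without Pmp22. With library size alone the identity sum was at -0.62, while the myelin sum turned to 0.040, with a spread of 0.0953 between libraries of a genotype. The mean log2 level of the myelin genes minus that of the identity genes was 1.65, 1.05 and 0.90 in dEx51 and 1.39, 1.09 and 0.69 in WT. These ranges overlapped, and the difference between genotypes was 0.14, or -0.03 without Pmp22, with a spread of 0.375 and 0.378 between libraries of a genotype.

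Ratios of raw counts within a library do not depend on the scaling. There were 14.1 and 13.5 Mbp reads per Sox10 read in dEx51 5 and 6 and 19.4 in dEx51 4, against 14.5, 15.4 and 11.7 in WT. Prx reads per Sox10 read were 8.75, 5.42 and 5.18 in dEx51 and 6.88, 7.38 and 5.70 in WT. Both ratios overlapped between genotypes, as did Cdh19 reads per Sox10 read at 3.33, 3.32 and 2.71 in dEx51 and 1.96, 3.71 and 4.15 in WT. Pmp22 moved apart from Sox10, with 89.8, 46.9 and 47.3 reads per Sox10 read in dEx51 and 29.9, 29.6 and 29.7 in WT. Mbp reads per Pmp22 read were 0.216, 0.299 and 0.285 in dEx51 and 0.485, 0.521 and 0.392 in WT. Prx reads per Pmp22 read were 0.0974, 0.115 and 0.109 in dEx51 and 0.230, 0.249 and 0.192 in WT. None of the 3 ratios with Pmp22 overlapped between genotypes. There were 2.22, 2.59 and 2.60 Mbp reads per Prx read in dEx51 and 2.11, 2.09 and 2.04 in WT, also without overlap. The intervals of the log2 fold changes overlapped, at -1.08 to -0.50 for Mbp and -1.35 to -0.72 for Prx. Counting error alone in dEx51 was 6.42% for Mbp and 10.1% for Prx. Whether Mbp fell less than Prx was not tested.

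**Figure D3:**
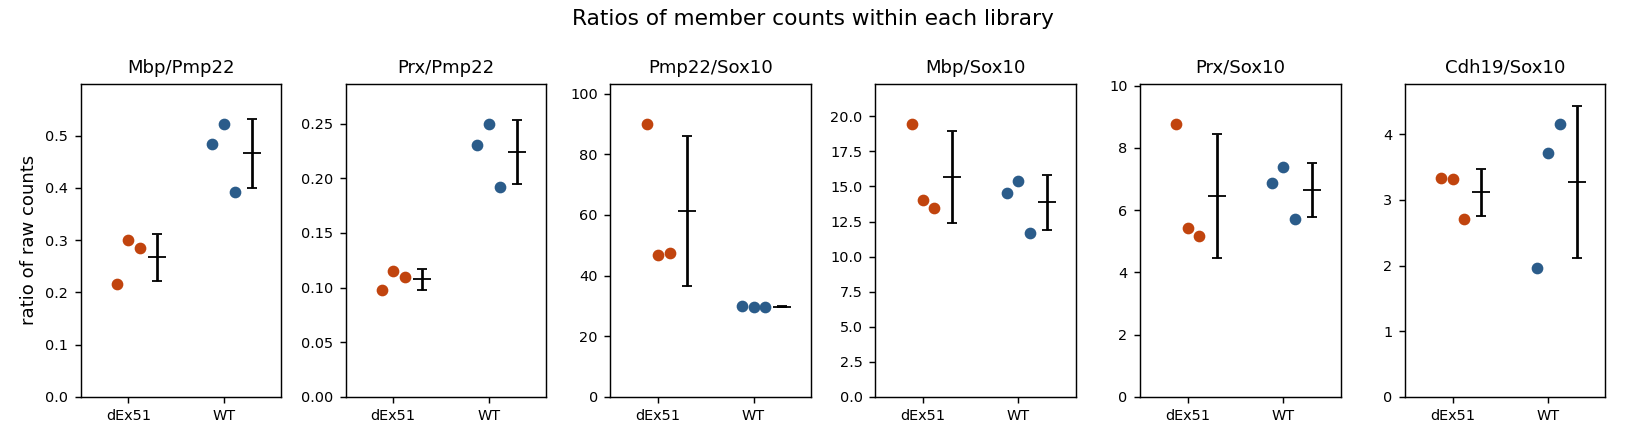
Ratios of raw counts of 2 genes within each library, for dEx51 (orange) and WT (blue), with mean and SD as a black bar. Genotypes are separated in the 3 panels with Pmp22 and overlap in the panels of Mbp, Prx and Cdh19 against Sox10.

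Some other genes of peripheral myelin fell as well. Of 12 listed, 8 were tested, 3 fell and 5 were not called, where 11.9% of all genes tested were called lower. The median of the 8 was -0.44 on the log2 scale. Under library size alone 1 of the 8 was called lower and 2 higher, Drp2 among the latter (0.59). Of all 14335 genes tested, 334 and 5394 were called so. Ugt8a, which makes the myelin lipid galactosylceramide, fell to 0.533 ± 0.103 CPM in dEx51, against 1.48 ± 0.320 CPM in WT (-1.45, edgeR adjusted p = 0.0101). The tetraspanin gene Tspan2 (-0.51) and the scaffold gene Mpdz (-0.38) also fell, and both lost their calls with library size alone (-0.15 and -0.04). Drp2, the partner of periaxin, was at 12.3 ± 1.53 CPM in dEx51 and 10.5 ± 0.536 CPM in WT and was not called (0.23), and the exchange factor gene Arhgef10 was not called (-0.24). Pmp2 had no counts, and Gjb1, Pllp and Gal3st1 were below the filter.

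Among regulators of the lineage other than Sox10 most genes were not called. Of 17 listed, 11 were tested, 3 rose and 8 were not called, where 16.1% of all genes tested were called higher and 11.9% lower. The median of the 11 was 0.14 on the log2 scale. Erbb2, the neuregulin co-receptor, rose to 6.63 ± 0.433 CPM in dEx51, against 4.33 ± 0.491 CPM in WT (0.62, edgeR adjusted p = 0.0205). Zeb2, a transcription factor of many cell types (0.52), and Nab2, a co-factor of EGR proteins (1.40), rose as well. Yy1 (-0.14) and Hdac2 (0.00), which are expressed in most cells, were not called. Egr2 and Erbb3 were picked with their values known. Egr2, the myelin transcription factor, was at 2.48, 0.875 and 2.03 CPM in dEx51 and 1.16, 0.986 and 0.788 CPM in WT and was not called (0.86, edgeR adjusted p = 0.149). The libraries overlapped, and Egr2 is also known from macrophages. Erbb3, the neuregulin receptor of Schwann cells, was at 13.7 ± 2.19 CPM in dEx51 and 9.91 ± 1.83 CPM in WT and was not called (0.46, edgeR adjusted p = 0.0812). The other regulators tested were not called either: Foxd3 (-1.26, edgeR adjusted p = 0.0852), S100b (-0.22), Adgrg6 (-0.21) and Nab1 (0.14). For Foxd3, with 3 to 12 reads a library, and for Yy1 every dEx51 library lay below every WT library, as for 21.7% of all genes tested. Scaled to library size alone, 7 of the 11 regulators were called higher, where 5394 of all 14335 genes tested were.

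Genes known from non-myelinating and injured-nerve Schwann cells had members that rose. Of 9 non-myelinating genes, 7 were tested, 3 rose and 4 were not called, where 16.1% of all genes tested were called higher. The median of the 7 was 0.51 on the log2 scale. With library size alone 6 of the 7 were called higher (median 0.86), where 5394 of all 14335 genes tested were (median 0.34). Ncam1, an adhesion molecule also known from regenerating muscle fibres, rose to 23.6 ± 3.39 CPM in dEx51, against 6.17 ± 1.28 CPM in WT (1.94, edgeR adjusted p = 5.68e-04). Cdh2 (1.51) and the sodium channel gene Scn7a (0.67) rose, while Atp1b2 (0.11) and Matn2 (0.51) were not called. Of 11 repair genes, 6 were tested and 3 were not called (median 0.50), while Runx2 (1.91), Gdnf (1.44) and Clcf1 (0.98) rose. Under library size alone 4 of the 6 repair genes were called higher (median 0.85), Jun among them (0.37). Which cells the reads of both lists came from was not tested. With TMM scaling Jun, the factor central to the Schwann cell injury programme, was at 68.4 ± 11.6 CPM in dEx51 and 67.2 ± 5.44 CPM in WT. It was not called (0.03), nor was Bdnf (-1.05). Shh and Olig1, which mark injured Schwann cells, had no counts in any library.

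Genes of the axon and its contacts with the sheath were mixed. Of 13 genes of the node, paranode and internode, 9 were tested, 2 fell and 1 rose, with a median of -0.10 on the log2 scale. Cadm4, the adhesion molecule by which Schwann cells hold the internode, fell to 0.988 ± 0.301 CPM in dEx51, against 2.94 ± 0.725 CPM in WT (-1.58, edgeR adjusted p = 0.00828). Cntnap2, a protein of the axon beside the paranode, fell (-1.05, not called with library size alone), and the adhesion gene Nrcam rose (2.27). Ank3 (-0.12) and Mpp6 (-0.04) were not called. Of 12 axon genes, 3 were tested: Stmn2 fell (-0.87, not called with library size alone), Uchl1 rose (0.94) and Prph was not called (-0.02). Nefl, Chat, Slc18a3 and Snap25 had no counts, and 9 of the 12 were below the filter. Of 8 genes of the nerve sheath and endoneurium, 7 were tested, 3 fell and 2 rose. Cldn1, a claudin of the perineurial barrier and of epithelia, fell (-1.27), as did Itgb4 (-0.52, not called with library size alone) and Tenm2 (-1.77), while Sox9 (1.23) and Abca9 (0.61) rose and Slc2a1 (-0.13) and Etv1 (-0.07) were not called.

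Myelin is rich in cholesterol, and of 16 genes of its synthesis and uptake 1 fell and 15 were not called (median 0.18 on the log2 scale). The 1 that fell was the squalene synthase gene Fdft1, at 36.3 ± 3.29 CPM in dEx51 and 84.8 ± 6.98 CPM in WT (-1.22, edgeR adjusted p = 4.57e-04). Under library size alone 4 of these genes were called higher and 1 lower, where 5394 and 334 of all 14335 genes tested were.

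Some lists of other cells moved with the genotype too, and their part in the values above was not tested. All 13 macrophage genes rose, with a median of 2.96 on the log2 scale, and their sum was 710 to 1500 CPM in dEx51 and 88.9 to 182 CPM in WT. Within dEx51 that sum was 1032, 1500 and 710 CPM in dEx51 4, 5 and 6. Of 10 fibroblast genes, 5 rose and 5 were not called, with sums of 5848 to 6645 CPM in dEx51 and 2631 to 4792 CPM in WT. Of 10 endothelial genes, 6 fell and 4 were not called (median -0.48; with library size alone 1 was called lower, median -0.12), with sums of 495 to 569 CPM in dEx51 and 744 to 847 CPM in WT. Of 8 genes listed for oligodendrocytes, the central myelin-forming cells, Mobp, Olig2 and Opalin had no counts, and Mog averaged 0.0346 CPM in dEx51 and 0.0846 CPM in WT. The 3 that were tested are not restricted to those cells: Aspa rose (0.40), at 12.9 CPM in dEx51 and 9.75 CPM in WT, and Sox8 (0.81) and Gpr17 (-0.65) were not called. Of 6 melanocyte genes, Pmel, Tyr, Dct, Tyrp1 and Mlana were below the filter, and Mitf, at 26.7 CPM in dEx51 and 30.8 CPM in WT, was not called. Of the 10 muscle fibre genes 0 were called, with a median log2 fold change of -0.38. With library size alone their median was -0.04, beside 0.34 over all genes tested.

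**Figure D4:**
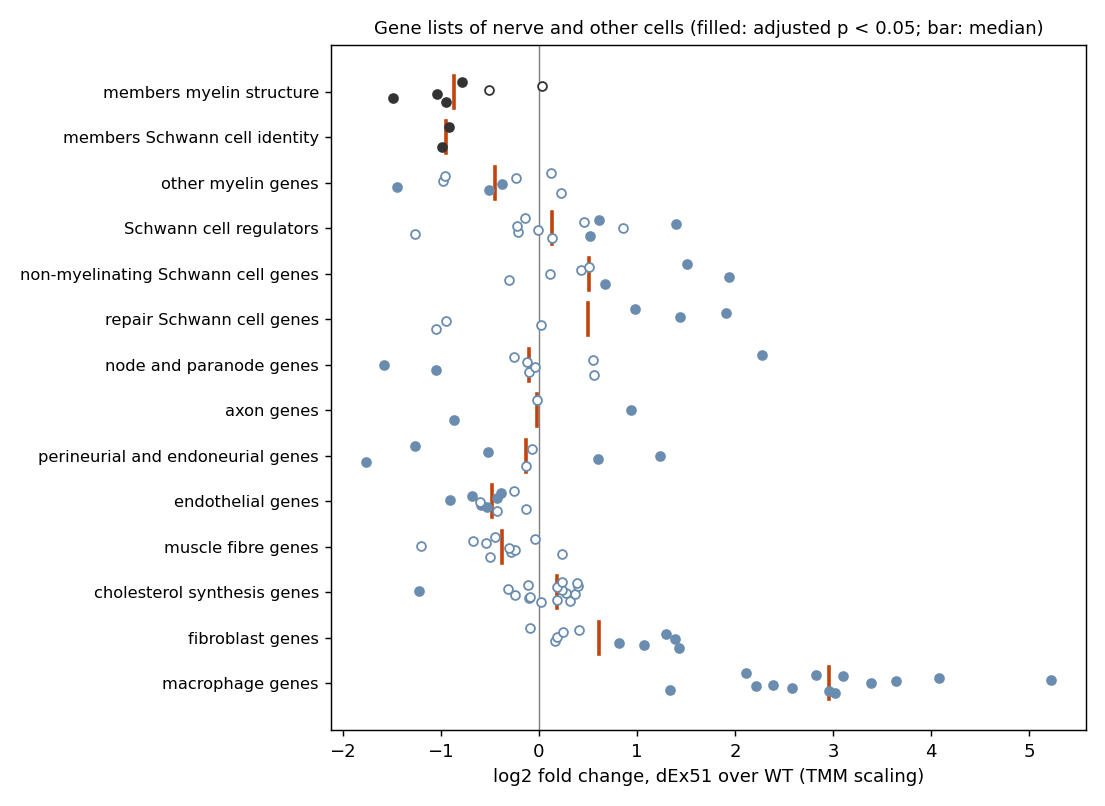
Log2 fold change, dEx51 over WT with TMM scaling, of the tested genes of each list (points, filled where the edgeR adjusted p is under 0.05) and the list median (orange bar). The 8 genes lie mostly between -1.49 and -0.51 and the macrophage genes between 1.34 and 5.23. The non-myelinating list runs from -0.30 to 1.94 and the repair list from -1.05 to 1.91.

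Across the 6 libraries the genes most like the 8 in pattern included Dusp26, Sorl1, Rgp1, Dmd and Ccm2l. Likeness was Pearson's r between a gene's log2 CPM and the mean standardised log2 CPM of the 8 genes, taken among genes averaging at least 1 CPM, and was 0.997 for Dusp26 and 0.992 for Ccm2l. Such values are common, since 1145 of 12932 genes reached 0.9, and the difference between genotypes enters each of them. Each of the 8 genes is itself part of that mean, so its r is not on a par with those of other genes. Prx had 0.989, Mbp 0.961, Mal 0.947, Ncmap 0.914, Sox10 0.913 and Cdh19 0.769, while Mag had 0.542 and Pmp22 -0.18.

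The authors' deposited table lists 7 of the 8 genes, without Mag. In the authors' deposited table the log2 fold changes of Prx, Mal, Mbp, Ncmap, Cdh19 and Sox10 are -1.07, -0.99, -0.82, -1.53, -1.02 and -0.95, each with an adjusted p of 0.0134 or less. Pmp22 is at -0.01 with an adjusted p of 0.977 in the authors' deposited table.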

How the data were processed

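Stranded mRNA libraries of tibialis anterior muscle from 3 dEx51 and 3 WT mice were compared. Raw counts of reads per gene, with exon lengths, are as the authors deposited them. GRCm38 (mm10), featureCounts 1.6.0, FastQC 0.11.4 and edgeR 3.30.1 are listed in the submitters' processing notes. The sources used here name no aligner, annotation release or strand setting. The authors' deposited RPKM values cover 13958 genes chosen by a filter that is not given. Their deposited comparison holds log2 fold changes, a likelihood-ratio score, p-values and their −log10, per the file headers.

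Counts were fitted with edgeR 4.0.16 in R 4.3.3 by the quasi-likelihood F-test, two-sided, after TMM (trimmed mean of M values) scaling and edgeR's own filter on low counts. Benjamini-Hochberg adjustment ran over the 14335 genes tested, with calls at an adjusted p under 0.05. SEs are the absolute log2 fold change divided by the square root of F, and 95% intervals use the degrees of freedom of the fit. The p-values set the genotype difference against the spread between these libraries and treat the libraries as independent. Whether the animals shared litters is not given. The chi-square per degree of freedom within groups was 8.81 to 47.6, so no library repeats another.

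The members and lists were chosen with earlier results of these data known. Named genes are the 8 members, Dmd, in each nerve list every called gene and the 2 most abundant that were not, for other cells up to 2 abundant genes, and the 6 genes most like the members. Egr2, Erbb3, Foxd3, S100b, Adgrg6, Nab1 and genes at 0 fall outside this rule. A few genes that the rule or the lists would include are not reported here, and the counts and median of the myelin list are without them. Alternatives were other scalings and filters, DESeq2 1.42.0, limma-voom (limma 3.58.1), the likelihood-ratio test, a replicate block, each library left out, log2 of RPKM with a pseudocount of 0.1 or 1, and a threshold of 0.01. Sums without Pmp22 were added after seeing the data. Of the gene IDs, 54165 of 54232 were found in GENCODE M21 on GRCm38, which gave the coordinates.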

Additional observations from a re-analysis of the deposited data

How the results depend on the processing

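Of the 8 genes, 6 were called lower in the main analysis. The count was 3 with library size alone, 3 with log2 RPKM at each pseudocount and with an RPKM filter, and 2 at an adjusted p under 0.01 (Mbp and Prx). Leaving out a library in turn gave 2 to 5, the lowest without WT 2. The count called higher was 0, but 1 (Pmp22) with library size alone and with each RPKM setting. The median log2 fold change of the 8 genes, -0.93, was -0.58 with library size alone, and -0.52, -0.27 and -0.52 with RPKM at pseudocounts of 0.1 and 1 and with the filter, over 7, 7 and 5 of the genes. The RPKM file does not list Mag, so the sums were not run on it. The log2 ratio of the myelin sum, -0.31, was 0.040 with library size alone and -0.88 without Pmp22. Over all genes 4010 were called, 1686 at an adjusted p under 0.01 and 2009 to 4819 with a library left out. The split of 2309 higher and 1701 lower became 5394 and 334 with library size alone. Pmp22 turned to -0.024 without WT 2 and -0.039 without dEx51 4, in a range of -0.039 to 0.094 with a library left out. The causes were not tested. The labels also number the replicates of each genotype 1 to 3, so that WT 1, 2 and 3 share numbers with dEx51 4, 5 and 6. Same-numbered libraries did not all deviate together (correlations of 0.352, -0.01 and 0.0562), so the numbers were not taken as pairs. With the replicate block 5 of the 8 genes were called lower and 4468 genes in all, and Sox10 lost its call (-0.93). Mag, Ncmap and Sox10 had 4 to 27 reads a library, the fewest of the 8 genes.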
